A study of Mus musculus with 8 samples.

Results

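Slc25a genes encode the mitochondrial carriers, and their transcripts were examined in primordial follicles of mice on postnatal day 3. All gene symbols of the count table that start with Slc25a were taken, which gave 44 of 26586 symbols. Of these, 37 passed the filter on low counts and were tested, among 13873 genes tested in all. The RNA-Seq libraries came from C57Bl/6 x CBA mice, with 4 mito-supplemented and 4 control samples. Mito-supplemented mice were of the third generation descending from founders whose oocytes had received mitochondria of egg precursor cells together with a spermatozoon at fertilisation. Control mice did not descend from supplemented oocytes. Each sample held pooled follicles of an ovary, and the animal and litter behind each were not given in the sources used here, so that p values measure the spread between these samples. The sample codes in the labels share their first part within 2 pairs of control samples and within 3 of the 4 mito-supplemented samples. What that part stands for is not given, and if it marks a shared origin, each group held 2 independent units. A further control library was removed by the authors and was not analysed here.

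Mitochondrial carriers are small proteins of the inner membrane that exchange nucleotides, phosphate, keto acids, amino acids, cofactors and metal ions between the matrix and the cytosol. The ADP/ATP carriers bring ADP in and take ATP out, and so link oxidative phosphorylation to the rest of the cell. Mice have a heart and muscle type (Slc25a4), a widely expressed type (Slc25a5) and a type known from testis and germ cells (Slc25a31). Oocytes of primordial follicles are arrested germ cells that are surrounded by flat pregranulosa cells.

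The start regions of Slc25a31 and Slc25a5 are shown because these ADP/ATP carriers differed most in how evenly they were expressed over the libraries. They are the 250 bases before the RefSeq transcript start in GRCm38.p6, both on the plus strand, at chr3:40708621-40708870 for Slc25a31 and chrX:36795347-36795596 for Slc25a5. The last 16 bases of the Slc25a31 window lie within the gene as annotated by GENCODE. Capitals mark matches, on either strand, to CACGTG, to TATAA and to a GATA word, which is AGATAA or else TGATAA or else AGATAG or else TGATAG.
Slc25a31: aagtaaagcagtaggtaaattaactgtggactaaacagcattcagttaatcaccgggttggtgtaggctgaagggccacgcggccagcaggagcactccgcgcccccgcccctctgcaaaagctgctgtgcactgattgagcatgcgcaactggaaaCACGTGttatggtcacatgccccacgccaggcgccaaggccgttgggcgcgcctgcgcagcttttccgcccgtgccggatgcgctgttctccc
Slc25a5: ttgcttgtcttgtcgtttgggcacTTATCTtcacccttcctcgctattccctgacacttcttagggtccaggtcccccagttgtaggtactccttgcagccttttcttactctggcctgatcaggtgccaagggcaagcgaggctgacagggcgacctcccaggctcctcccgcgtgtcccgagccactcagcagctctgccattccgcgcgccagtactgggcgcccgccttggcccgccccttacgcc
The Slc25a31 window held 1 CACGTG, which starts 93 bases before the transcript start, and 0 of the GATA words. The Slc25a5 window held 1 GATA word and 0 CACGTG, and TATAA was in neither. Over 32851 promoter windows of this length, 6.02% held CACGTG, 22.8% held TATAA and 26.5% held a GATA word. The windows held 18 and 14 CpG dinucleotides for Slc25a31 and Slc25a5, against a median of 6 over all windows. Of all windows, 78.3% held fewer than that of Slc25a31 and 70.6% fewer than that of Slc25a5, so neither count was rare. These matches describe the letters of the windows, and binding of a factor was not measured.

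Depth differed between samples, with totals of 17658559, 13917412, 18219362 and 10370045 counts in control replicates 1 to 4. Mito-supplemented replicates 1 to 4 had totals of 19760763, 13370911, 16116434 and 13276462 counts. Values per library are given below in the order of these replicate numbers. The ribosomal RNA genes Rnr1, Rnr2, Rn45s and Rn18s took between 20.1% of the counts (mito-supplemented replicate 1) and 75.3% (control replicate 4). Control replicate 4 therefore had 2559876 counts on other genes, the fewest of the 8 libraries, and 3 counts in it correspond to 0.592 CPM, the TMM-scaled count relative to library size. In the other libraries 3 counts correspond to between 0.123 and 0.238 CPM. A carrier was taken as detected in a library with more than 3 counts.

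Libraries of both groups stood apart in markers of red cells and of oocytes. Of the red cell list, 7 of 13 genes were in the count table, and the most abundant was Slc4a1, the anion exchanger of the red cell membrane. Summed over these genes the control libraries had 24, 4063, 2620 and 51.1 CPM, and the mito-supplemented libraries 4997, 82.8, 29.2 and 28.3 CPM. Control replicates 2 and 3 and mito-supplemented replicate 1 were thus high and the other 5 libraries low. Slc4a1, Alas2, Klf1 and Hbb-b1 were all high in those 3 libraries, whereas the alpha globin genes were at or near 0, with at most 0.243 CPM of Hba-a1 and 8.4 CPM of Hba-a2. Of the immune list, 8 of 9 genes were in the count table, and their sum, most of it from Lyz2 in those 3 libraries, was highest in the same libraries. It was 10.6, 136, 119 and 21.5 CPM in the control libraries and 744, 12.1, 17.4 and 8.55 CPM in the mito-supplemented libraries. Lyz2 is a lysozyme of myeloid cells, and Ptprc, the common leukocyte antigen, had 19.7, 29.5 and 71.7 CPM in the 3 libraries and at most 1.04 CPM in the other 5. Tyrobp was also highest in these 3, at 7.21, 7.09 and 22.1 CPM. Cd68 and Csf1r did not follow them. Cd68 had 2.63, 5.23, 4.4 and 0.197 CPM in the control libraries and 1.5, 2.49, 4.67 and 4.73 CPM in the mito-supplemented libraries, and Csf1r had 2.22, 1.82, 4.29 and 0.987 CPM and 10.6, 6.03, 4.58 and 1.32 CPM. C1qb was at 0 in all libraries, and C1qa and C1qc were at most 0.485 and 0.998 CPM. Libraries described below as high in red cell genes were thus also highest in Lyz2, Ptprc and Tyrobp, but not in all immune genes.

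The oocyte list had all 14 genes in the count table, none of them at 0 in all libraries, and Nlrp5, a maternal effect gene, was the most abundant. Its summed level was 3816, 212, 184 and 685 CPM in the control libraries and 313, 205, 805 and 108 CPM in the mito-supplemented libraries. Control replicate 1 was thus highest, and mito-supplemented replicate 4 lowest. Stroma genes, led by Col3a1, summed to between 336 CPM (control replicate 1) and 2480 CPM (mito-supplemented replicate 3), and granulosa genes to between 148 CPM (control replicate 2) and 1040 CPM (mito-supplemented replicate 4). Surface epithelium genes summed to 59.3, 28.8, 27.1 and 259 CPM in the control libraries and 211, 568, 235 and 479 CPM in the mito-supplemented libraries, and endothelial genes to 26.1, 28.1, 42.7 and 212 CPM and 97, 227, 180 and 201 CPM. Some lists thus leaned with the groups, although control replicate 4 lay among the mito-supplemented libraries in both. The median log2 fold change in mito-supplemented against control samples was 1.87 over the 7 surface epithelium genes tested, 1.35 over 7 endothelial genes, 0.96 over 9 granulosa genes, 0.74 over 8 stroma genes and -1.73 over 12 oocyte genes, beside -0.10 over all genes tested. In the oocyte list, only control replicate 1, with a mean log2 CPM of 6.69, lay above the mito-supplemented libraries (1.55 to 4.57). Control replicates 2 to 4, at 2.42, 2.09 and 3.83, lay within their range. The oocyte list thus leaned with the groups through control replicate 1, and its fold change without that library was not computed. The part of these cell types in the fold changes of the carriers was not tested. In such bulk samples, fewer cells of a type and less RNA per cell cannot be told apart.

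Transcripts of most of the family were detected in these follicle samples. Which cells in the samples they came from was not tested. Of the 44 carriers, 30 were detected in all 8 libraries, and 34 to 43 were detected in a given library, fewest in control replicate 4. The 7 carriers that did not pass the filter were Slc25a2, Slc25a29, Slc25a34, Slc25a41, Slc25a43, Slc25a47 and Slc25a48. Slc25a41, an ATP-Mg/phosphate carrier, was the rarest, with 16 counts in all and more than 3 counts in 1 library. Slc25a43 and Slc25a29 were detected in 5 and 6 libraries, with totals of 111 and 73 counts.

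Levels of different genes were compared as CPM per kilobase (kb) of annotated exon. By the median over the 8 libraries the order was led by Slc25a5 (47.2 CPM per kb) and Slc25a4 (33.4 CPM per kb), followed by the phosphate carrier Slc25a3 at 8.97 and the iron carrier Slc25a37 at 8.48 CPM per kb. Slc25a11, Slc25a23 and Slc25a39 came next, with medians of 7.49, 7.43 and 7.3 CPM per kb, and these neighbours overlapped in their ranges over libraries. By the mean, Slc25a37 ranked first at 96.1 ± 128 CPM per kb (SD, n = 8), since 3 libraries held most of it. The means of Slc25a5 and Slc25a4 were 52.3 ± 13.9 and 33.6 ± 15.1 CPM per kb (SD, n = 8). Of the 8 carriers highest by mean CPM per kb, 6 were also among the 8 highest by CPM without length scaling.

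**Figure D1:**
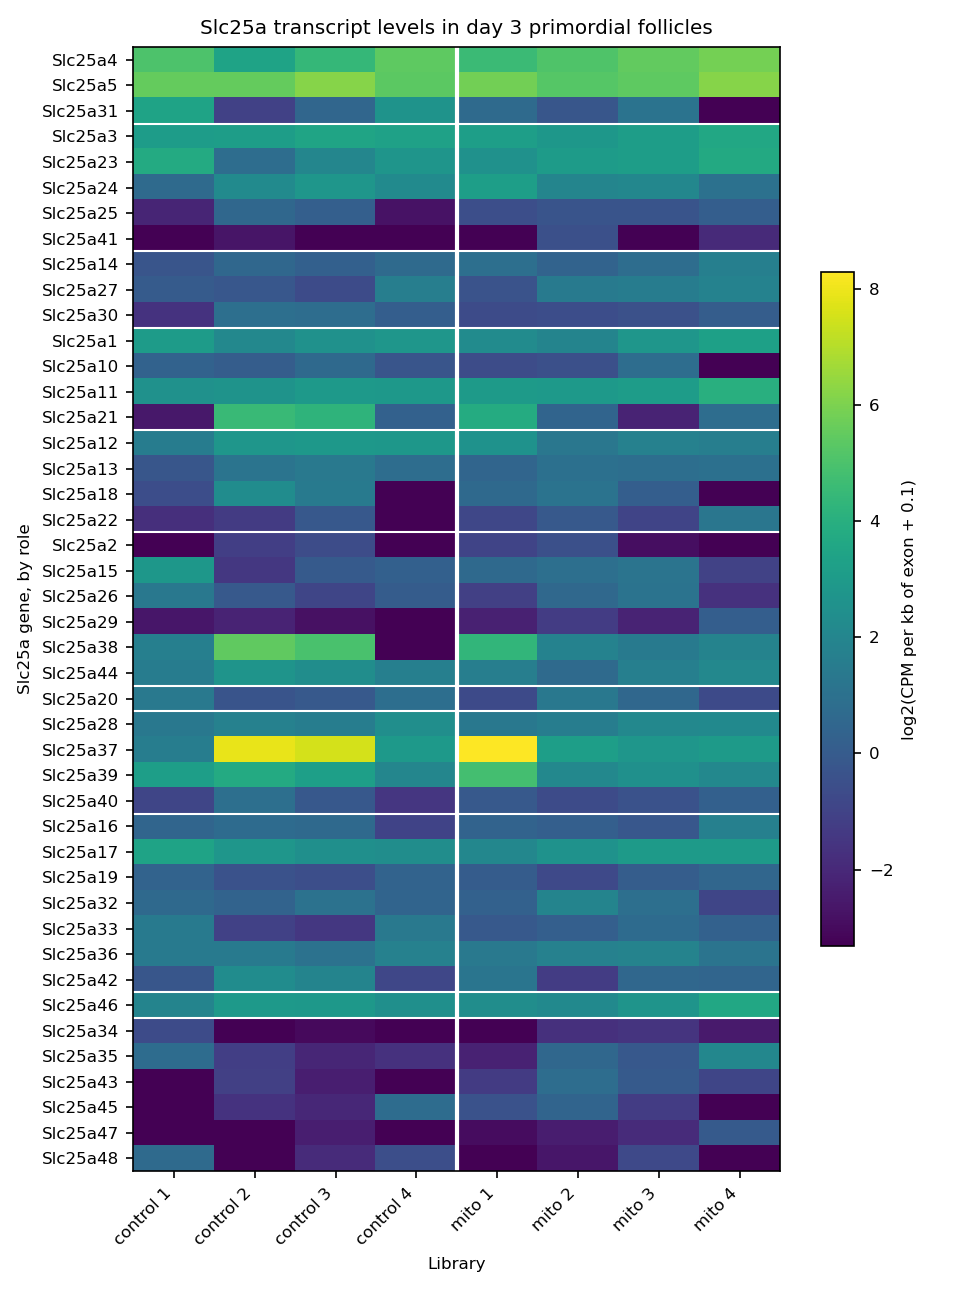
Levels of the 44 Slc25a genes (rows, by role) in the 4 control and 4 mito-supplemented libraries (columns), as log2 of CPM per kb of exon plus 0.1. Slc25a4 and Slc25a5 are bright in all 8 libraries, while Slc25a37, Slc25a38 and Slc25a21 are bright in control replicates 2 and 3 and mito-supplemented replicate 1.

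The family varied about as much between libraries as other genes did. The SD of log2 CPM over the 8 libraries had a median of 0.92 for the 37 carriers tested and of 0.98 for all genes tested. It was lowest for Slc25a3 (0.25) and highest for Slc25a38 (3.13). Slc25a3, Slc25a36 and Slc25a5 differed by 1.75, 1.83 and 1.95 times between their lowest and highest library, and Slc25a21 by 344 times.

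Among the ADP/ATP carriers, Slc25a5 was the most even. It had 77.8, 77.7, 121 and 67.7 CPM in the control libraries and 92.3, 62.3, 70.4 and 119 CPM in the mito-supplemented libraries. The groups overlapped throughout, with means of 86.1 ± 23.8 and 86.1 ± 25.6 CPM (SD, n = 4 each). Its log2 fold change was -0.00028 (standard error 0.34, adjusted p = 1, edgeR's quasi-likelihood test). Slc25a5 shares near-identical transcript sequence with 2 other annotated genes, Gm5529 and Gm5560, so that its counts are uncertain to the extent that reads were shared between them.

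Slc25a4 had 78.1, 25.3, 49.9 and 99.3 CPM in the control libraries and 55.7, 79.2, 108 and 137 CPM in the mito-supplemented libraries. The groups overlapped, and the 3 libraries high in red cell genes were the 3 lowest in Slc25a4. Its log2 fold change in mito-supplemented against control samples was 0.59 (standard error 0.46, adjusted p = 0.744, edgeR's quasi-likelihood test). An exact permutation test of log2 CPM gave p = 0.229 (two-sided). When single libraries were omitted the log2 fold change ran from 0.33 (control replicate 2) to 0.91 (control replicate 4), and without the 3 libraries highest in Slc4a1 it was 0.30.

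Slc25a31, the germ cell type (chromosome 3, 40708855 to 40726096), was present at a lower level and unevenly. It had 22.5, 0.793, 2.86 and 13 CPM in the control libraries, and 3.2, 1.59, 4.4 and 0 CPM in the mito-supplemented libraries. Control replicates 1 and 4 were above all others, and the other 2 control libraries lay within the range of the mito-supplemented ones. Mito-supplemented replicate 4 had 0 counts, which allows a level of up to 0.209 CPM there, and control replicate 1 had 548 counts. Its share of the summed ADP/ATP carrier level per kb was 11.6% in control replicate 1 and 6.84% in control replicate 4, and at most 2.28% in the other 6 libraries. Its log2 fold change was -2.08 (standard error 1.28, adjusted p = 0.698, edgeR's quasi-likelihood test), with the smallest unadjusted p of the family at 0.135 in that edgeR test. Without control replicate 1 the log2 fold change was -1.22, with limma-voom and quality weights it was -0.12, and without the 3 libraries highest in Slc4a1 it was -3.10.

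The level of Slc25a31 went with that of the oocyte list over the 8 libraries. The mean log2 CPM of the list was 6.69, 2.42, 2.09 and 3.83 in the control libraries and 3.15, 2.93, 4.57 and 1.55 in the mito-supplemented libraries. Spearman's rho was 0.90 (exact permutation p = 0.00456, adjusted p = 0.0274 over the 6 relations computed), and Pearson's r was 0.81 (exact permutation p = 0.0173, adjusted p = 0.104). Without control replicate 1 and mito-supplemented replicate 3, the libraries farthest from the median of the list, r was 0.86 (exact permutation p = 0.0264, n = 6) and rho 0.83 (exact permutation p = 0.0583, n = 6). The rank correlation no longer had a p under 0.05 in these 6 libraries. Each group of 4 was too small for a value of its own.

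For Slc25a4 and Slc25a5, rho with the oocyte list was 0.12 (exact permutation p = 0.793) and -0.48 (exact permutation p = 0.243), with r of 0.20 and -0.51. For Slc25a37, Slc25a38 and Slc25a39 rho was -0.60, -0.69 and -0.02 (exact permutation p = 0.132, 0.0694 and 0.977), with r of -0.55, -0.34 and 0.02. Adjusted p values of these 5 relations were at least 0.208 for rho and at least 0.378 for r. Without the same 2 libraries, r was 0.01, -0.76, -0.12, -0.59 and 0.04 for Slc25a4, Slc25a5, Slc25a37, Slc25a38 and Slc25a39. The part of oocyte RNA in the level of Slc25a31 was not tested.

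**Figure D2:**
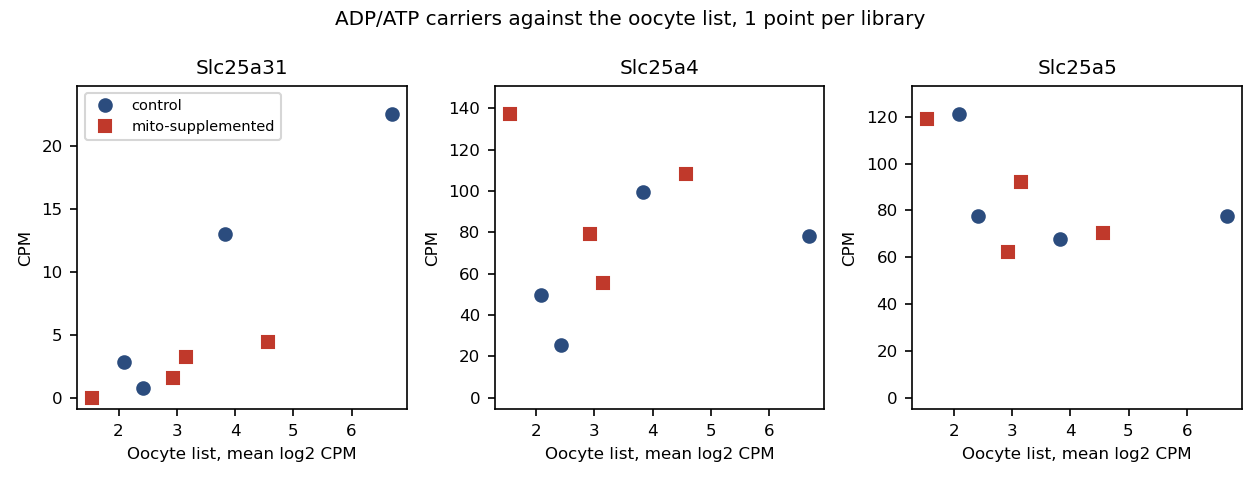
CPM of Slc25a31, Slc25a4 and Slc25a5 (vertical axes, linear) against the mean log2 CPM of the oocyte list (horizontal axes), with circles for control and squares for mito-supplemented libraries. Slc25a31 reaches 22.5 and 13 CPM in control replicates 1 and 4 and is at 0 in the library with the lowest oocyte level, whereas Slc25a4 and Slc25a5 show no such order.

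Of the phosphate and ATP-Mg/phosphate carriers, Slc25a3 had the highest level per kb. Slc25a3, which imports phosphate for ATP synthesis, had 46.9, 48.9, 61 and 55.3 CPM in the control libraries and 50.7, 39.2, 48.4 and 68.6 CPM in the mito-supplemented libraries. The groups overlapped, and its log2 fold change was -0.04 (standard error 0.31, adjusted p = 0.976, edgeR's quasi-likelihood test). The ATP-Mg/phosphate carrier Slc25a23 had 70.8, 8.96, 20.5 and 34.7 CPM in the control libraries, and 30.7, 44, 46 and 70.5 CPM in the mito-supplemented libraries. It was lowest in the 3 libraries high in red cell genes, and its log2 fold change was 0.50 (standard error 0.58, adjusted p = 0.811, edgeR's quasi-likelihood test). Omitting control replicate 2 gave 0.19, omitting control replicate 1 gave 1.19 (unadjusted p under 0.05), and leaving out the 3 libraries highest in Slc4a1 gave 0.04. Slc25a24 and Slc25a25, of the same type, had means of 4.54 and 0.7 CPM per kb.

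Of the carriers that resemble uncoupling proteins, Slc25a14, Slc25a27 and Slc25a30 had means of 1.55, 1.86 and 0.924 CPM per kb. Slc25a27 was higher in the 5 libraries low in red cell genes, where it ranged from 3.57 to 13.6 CPM, than in the other 3, where it ranged from 2.06 to 3.09 CPM.

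Among the carriers of citrate and keto acids, the oxoglutarate carrier Slc25a11 (chromosome 11, 70644196 to 70647479) was the only member tested whose groups did not overlap. It had 12.3, 13.1, 15.7 and 15.4 CPM in the control libraries and 17, 16.1, 17.9 and 33.2 CPM in the mito-supplemented libraries. The lowest mito-supplemented library and the highest control library were close, and mito-supplemented replicate 4 was far above the rest. Its log2 fold change was 0.58 (standard error 0.40, unadjusted p = 0.18, adjusted p = 0.722, edgeR's quasi-likelihood test). The exact permutation test gave p = 0.0286 (two-sided), the smallest that 4 samples against 4 allow. Groups of 4 that do not overlap always give this value, so it adds nothing to the lack of overlap. It was not adjusted over the 12 carriers tested in this way. With library size scaling alone the log2 fold change was 0.89, and with counts summed by the first part of the label codes it was 0.90. With limma-voom and quality weights it was 0.28. Without mito-supplemented replicate 4 the log2 fold change was 0.30, and the exact permutation p was 0.0857. The exact permutation p was 0.0857, 0.114, 0.0571 and 0.0571 without control replicates 1, 2, 3 and 4, so that it was above 0.05 on omitting any of these 5 libraries. Over all genes tested, 3.00% did not overlap with mito-supplemented samples higher, and 2.03% with them lower. The family had 1 and 0 of 37, so that its share was near that of all genes. Slc25a11 overlaps another gene on the opposite strand, and the strand setting of the counting was not given in the sources used here.

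Slc25a1, the citrate carrier, was at 6.2 ± 2.03 CPM per kb (SD, n = 8), and the dicarboxylate carrier Slc25a10 at 0.898 ± 0.537 CPM per kb (SD, n = 8). The oxodicarboxylate carrier Slc25a21 had 0.328, 113, 92.1 and 5.53 CPM in the control libraries and 68, 5.96, 0.59 and 8.07 CPM in the mito-supplemented libraries. It was thus high in the 3 libraries with high red cell genes and at most 8.07 CPM in the other 5.

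Slc25a12, an aspartate/glutamate carrier of the malate-aspartate shuttle, had 20.8, 49.7, 53.2 and 50.7 CPM in the control libraries. In the mito-supplemented libraries it had 43.3, 17.2, 24.7 and 22.5 CPM. Control replicate 1 lay among the mito-supplemented libraries, and mito-supplemented replicate 1 near the other controls. Its log2 fold change was -0.69 (standard error 0.43, unadjusted p = 0.141, adjusted p = 0.705, edgeR's quasi-likelihood test). Omitting control replicate 1 gave -0.91 (unadjusted p under 0.05), and scaling by library size only gave -0.29. Over single omissions it was farthest from 0 without mito-supplemented replicate 1. Slc25a13, the other aspartate/glutamate carrier, was at 1.72 ± 0.531 CPM per kb (SD, n = 8).

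The glutamate carrier Slc25a22 had 1.19, 1.82, 4.86 and 0 CPM in the control libraries and 2.72, 5.13, 2.5 and 13.4 CPM in the mito-supplemented libraries. The groups overlapped, and its log2 fold change was 1.56 (standard error 1.09, adjusted p = 0.722, edgeR's quasi-likelihood test). Without mito-supplemented replicate 4 it was 0.81, with limma-voom and quality weights it was 0.27, and without the 3 libraries highest in Slc4a1 it was 3.41. Slc25a18, also a glutamate carrier, had 0 counts in control replicate 4 and mito-supplemented replicate 4, and a median of 1.23 CPM per kb.

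Of the other amino acid carriers, Slc25a15, which exchanges ornithine and citrulline, had 39.2 CPM in control replicate 1 and between 1.51 and 12.1 CPM in the other 7 libraries. Slc25a26, which imports S-adenosylmethionine, and the carnitine carrier Slc25a20 were also highest in control replicate 1, at 11.5 and 12.1 CPM. Slc25a20 was at 11.8 CPM in mito-supplemented replicate 2, and it shares near-identical sequence with 18 other annotated genes, so that its counts are uncertain. In all, 7 of the 37 carriers tested were highest in that library, the library with the highest oocyte level, against 22.5% of all genes tested. The share of the family, 18.9%, was near that of all genes.

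Among the carriers with roles in iron and haem, levels of some members differed widely between libraries. Slc25a37, or mitoferrin, imports iron for haem synthesis in red cell precursors (chromosome 14, 69241848 to 69285112). It had 17.5, 1426, 1115 and 45 CPM in the control libraries and 1884, 53.7, 40.4 and 48.4 CPM in the mito-supplemented libraries. Control replicates 2 and 3 and mito-supplemented replicate 1 were above 1000 CPM, and the other 5 libraries had at most 53.7 CPM. Slc25a38, which imports glycine for haem synthesis, had 8.45, 119, 84.9 and 0 CPM in the control libraries and 55.3, 9.63, 7.12 and 9.87 CPM in the mito-supplemented libraries. Its 3 highest libraries were the same, and its 0 counts in control replicate 4 allow up to 0.592 CPM. Slc25a39, which imports glutathione, had 25.1, 37.6, 25.8 and 10.9 CPM in the control libraries and 77.5, 11.6, 15.2 and 11.5 CPM in the mito-supplemented libraries. The same 3 libraries were again highest, although control replicate 1 was close to control replicate 3.

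The other mitoferrin, Slc25a28, did not share this pattern: it ranged from 8.93 to 19.7 CPM, and its highest library was control replicate 4. Slc25a40, which is related to Slc25a39, ranged from 2.17 to 14.9 CPM. Slc25a37 overlaps 2 genes on the opposite strand and shares near-identical sequence with 3 other annotated genes, so that its counts are uncertain to that extent.

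The log2 fold changes of Slc25a37, Slc25a38 and Slc25a39 were -0.36, -1.38 and 0.22 (standard errors 1.51, 1.32 and 0.69, adjusted p = 0.948, 0.782 and 0.93, edgeR's quasi-likelihood test). They depended on the scale and on the libraries included. On log2 CPM, the mito-supplemented mean minus the control mean was 0.47 for Slc25a38 and -0.19 for Slc25a39 (exact permutation p = 0.943 and 0.857), so that both signs turned. Without mito-supplemented replicate 1 the log2 fold change of Slc25a37 was -3.77 (unadjusted p under 0.05), and omitting control replicate 2 gave 0.37. For Slc25a38 the same omissions gave -2.57 and -0.61, and it was -0.12 with the replicate number as a block and -0.15 with the red cell level as a covariate. With counts summed by the first part of the label codes it was -1.63 (unadjusted p under 0.05). In an alternative added after the data were seen, without the 3 libraries highest in Slc4a1, the log2 fold changes were 0.62, 1.06 and -0.48.

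Over the family, 6 of the 37 carriers tested had all of the 3 libraries highest in Slc4a1 above the other 5, against 14.1% of all genes tested. They were Slc25a37, Slc25a38, Slc25a39 and Slc25a21 together with the ATP-Mg/phosphate carrier Slc25a24 and the coenzyme A carrier Slc25a42. The reverse, with the 3 libraries below the other 5, held for 4 carriers, Slc25a4, Slc25a23, Slc25a27 and Slc25a33, against 8.43% of all genes tested. These shares, 16.2% and 10.8%, were near those of all genes. The red cell list fell into 2 clusters of 3 and 5 libraries, and for that reason no correlation was computed with it. Lyz2, Ptprc and Tyrobp of the immune list were highest in the same 3 libraries. The parts of red cell and immune cell RNA in these levels were not tested.

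**Figure D3:**
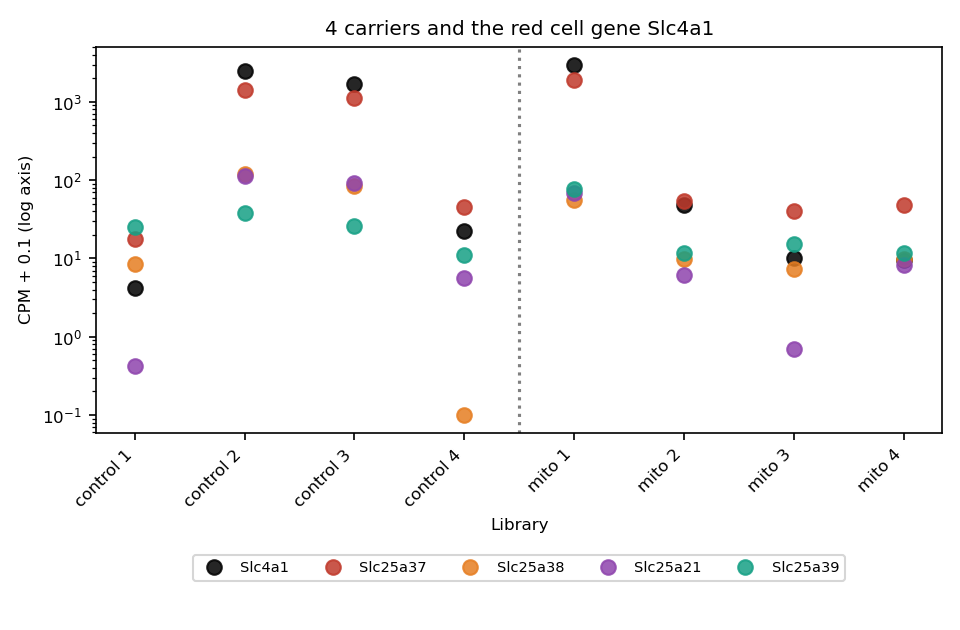
CPM plus 0.1 (log axis) of Slc4a1 and of the carriers Slc25a37, Slc25a38, Slc25a21 and Slc25a39 in each of the 8 libraries, with the groups divided by the dotted line. Slc25a37 lies above 1000 CPM in control replicates 2 and 3 and mito-supplemented replicate 1, the 3 libraries in which Slc4a1 is high.

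The share of RNA from the family differed between the same libraries. Slc25a counts made up 0.112%, 0.338%, 0.305% and 0.121% of the counts outside ribosomal RNA genes in the control libraries. In the mito-supplemented libraries they made up 0.337%, 0.113%, 0.138% and 0.159%. With Slc25a37 left out, the shares ran from 0.091% (mito-supplemented replicate 1) to 0.149% (mito-supplemented replicate 4). Slc25a37 alone gave 73% of the Slc25a counts in mito-supplemented replicate 1 (95% Wilson interval 72.6% to 73.4%), 65.2% in control replicate 2 (64.6% to 65.8%) and 59% in control replicate 3 (58.5% to 59.5%). In the other 5 libraries it gave between 2.82% and 9.38%. The intervals and the limits from 0 counts cover counting error only.

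**Figure D4:**
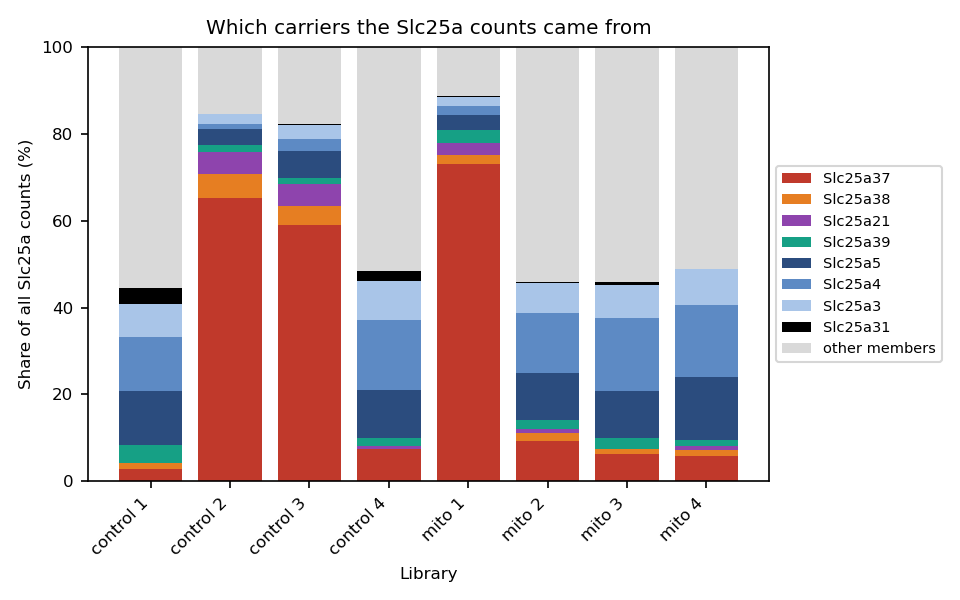
Share of all Slc25a counts (%) that came from 8 named carriers and from the other members, in each library. Slc25a37 takes 59% to 73% in control replicates 2 and 3 and mito-supplemented replicate 1, and at most 9.38% in the other 5 libraries.

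Slc25a17, the peroxisomal carrier of cofactors, was highest among the carriers of nucleotides and cofactors at 6.67 ± 2.06 CPM per kb (SD, n = 8). Slc25a36, a pyrimidine nucleotide carrier, was at 2.75 ± 0.616, and the folate and FAD carrier Slc25a32 at 1.61 ± 0.956 CPM per kb (SD, n = 8). Slc25a46, a protein of the outer membrane that takes part in mitochondrial dynamics, was at 6.49 ± 2.73 CPM per kb (SD, n = 8). Among the carriers given no substrate here, Slc25a35 had 6.03, 1.27, 0.515 and 0.79 CPM in the control libraries and 0.437, 5.06, 3.04 and 14.9 CPM in the mito-supplemented libraries. Its groups overlapped, and its log2 fold change was 1.42 (standard error 1.12, adjusted p = 0.744, edgeR's quasi-likelihood test). Without mito-supplemented replicate 4 it was 0.43, and without control replicate 1 it was 2.79 (unadjusted p under 0.05). Slc25a35 shares near-identical sequence with Rangrf.

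Calls of carriers between mito-supplemented and control samples depended on the test. With edgeR's quasi-likelihood test, where a call needed an adjusted p under 0.05 and a log2 fold change of 1 or more in either direction, 0 of the 37 carriers and 0 of the 13873 genes (0%) were called. At an unadjusted p under 0.05 were 736 genes with higher levels in mito-supplemented samples (5.31%) and 333 genes with lower levels (2.40%), and 0 carriers were in either set. With the likelihood ratio test, 58 genes (0.418%) and 0 carriers were called, and with DESeq2 141 genes (1.02%) and 0 carriers. Of the 37 carriers, 17 had log2 fold changes above 0 and 20 below. With library size scaling alone the split was 23 above and 14 below, and with upper quartile scaling 21 and 16. Their median log2 fold change was -0.00086, beside -0.10 for all genes tested. Library size scaling alone moved these medians to 0.28 and 0.17.

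limma-voom with sample quality weights was the exception, with 2578 genes (18.6%) and 5 of 37 carriers called, namely Slc25a4, Slc25a12, Slc25a23, Slc25a27 and Slc25a37. At an unadjusted p under 0.05 it had 12 of 37 carriers, against 37.6% of all genes. The family's shares were 13.5% and 32.4%, and their difference from those of all genes was not tested. The weights ran from 0.231 in control replicate 1 to 3.53 in control replicate 3, and were 1.83 in control replicate 2 and 0.538 in control replicate 4. In the mito-supplemented libraries they were 0.514, 2.27, 2.58 and 0.414. Control replicates 2 and 3, which were high in red cell genes, thus counted most among the controls, and mito-supplemented replicates 2 and 3, which were low in them, counted most in the other group.

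**Figure D5:**
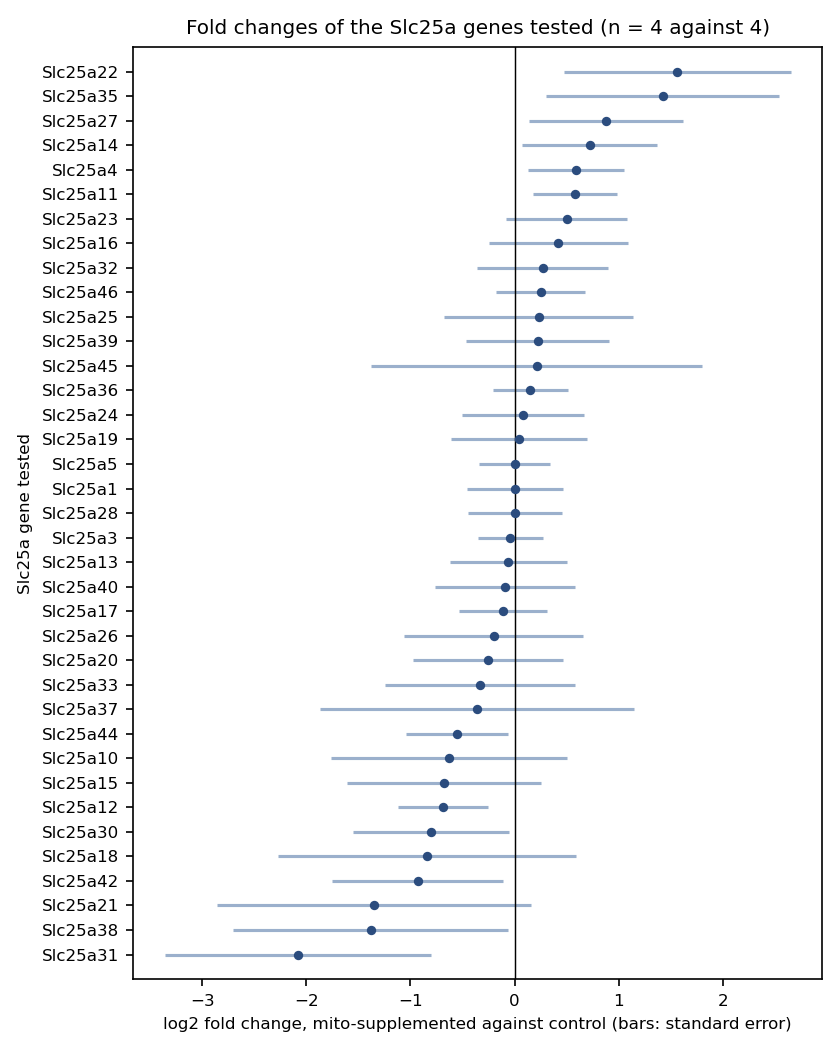
log2 fold change in mito-supplemented against control samples (horizontal axis) with its standard error (bars) for each of the 37 Slc25a genes tested, from edgeR's quasi-likelihood fit over 4 against 4 libraries. The values run from -2.08 (Slc25a31) to 1.56 (Slc25a22), and 0 of them were called.

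Other genes of mitochondrial transport were also examined, and their difference from the Slc25a genes was not tested. Among them were 7 carrier-family genes with other symbols, such as Ucp2 and Mcart1. The counts of carriers given above leave these out, since the members were taken by symbol. Of 30 such genes listed, 24 were in the count table under the listed symbols and 22 were tested, 9 with log2 fold changes above 0 and 13 below. None was called by edgeR's quasi-likelihood test, and 1 was at an unadjusted p under 0.05: Sfxn3, a sideroflexin, with 14.2, 12.4, 19.7 and 50.9 CPM in the control libraries and 37.6, 69.3, 43.1 and 106 CPM in the mito-supplemented libraries. The groups overlapped, and its log2 fold change was 1.40 (standard error 0.55, unadjusted p = 0.028, adjusted p = 0.626 in the edgeR test). It was named after its values were seen, and 1 of 22 is near the 5.31% of all genes tested that were higher at that p. The carrier-family genes Ucp1 and Ucp3 had at most 0.416 and 0.458 CPM in any library.

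The related genes in which the 3 libraries high in red cell genes were above the other 5 included Ucp2, Mcart1 and Abcb10, which were also named after their values were seen. Abcb10, a transporter of the inner membrane with a role in haem synthesis, had 11, 465, 319 and 9.47 CPM in the control libraries and 294, 14.3, 11.8 and 4.24 CPM in the mito-supplemented libraries. Ucp2, an uncoupling protein, had 49.9, 496, 373 and 136 CPM in the control libraries and 780, 120, 104 and 148 CPM in the mito-supplemented libraries. Both thus followed the libraries in which Slc25a37 was high, whatever their group.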

How the data were processed

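The authors trimmed the reads with Trim Galore 0.4.4, mapped them to GRCm38 with STAR 2.5.3a and summarised them over exons with featureCounts. The deposited values are raw counts per gene symbol. Which annotation release was used, whether strand was counted and how reads with several positions were treated are not given in the sources used here. Counts were normalized by TMM, filtered with the defaults of filterByExpr and compared by the quasi-likelihood test of edgeR 4.0.16 (R 4.3.3), with Benjamini-Hochberg adjustment over 13873 genes. DESeq2 1.42.0, limma 3.58.1 and the likelihood ratio test were alternatives. CPM was computed from TMM library sizes, and log2 CPM with 2 as prior count. The standard error of a log2 fold change is its size over the square root of F. Exon lengths came from GENCODE M21, to which all 44 carriers were matched by symbol. In this annotation, exons of 12 carriers overlap another gene on the opposite strand, among them Slc25a21, Slc25a23, Slc25a35 and Slc25a46. A near-identical transcript of another gene (at least 95% identity over 300 bases) exists for 7 carriers, among them Slc25a36, Slc25a40 and Slc25a46. The counts of all these carriers are uncertain to that extent. Promoter sequences came from RefSeq. The scripts were tested on simulated data. For the edgeR fit, recovery of changed genes was required only at a smaller spread between samples than these data had.

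The members and lists were chosen with earlier results of these data known. Fold changes are given in the text for the ADP/ATP carriers, Slc25a37, Slc25a38, Slc25a39, the 8 carriers highest by mean CPM per kb, the 6 with the smallest unadjusted p and those whose groups did not overlap, and for others levels, except that the plot of fold changes shows all carriers tested. A marker level was taken to fall into clusters where its largest gap was over 0.5 of its range, a limit set after the values were seen. The gap was 0.53 of the range for the red cell list and 0.412 for the oocyte list. The planned correlations with the red cell list were therefore not computed. Those with the oocyte list were adjusted over the 6 relations computed, fewer than planned. Some genes of the lists are not reported here by name. The other marker lists were smooth muscle genes, with a median log2 fold change of 0.64, and adipocyte genes, of which none was tested. Their summed levels ran from 21.2 to 360 CPM and from 0 to 2.17 CPM over the libraries.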

Additional observations from a re-analysis of the deposited data

Results flagged for a closer look

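Of the 24 groups of 4 libraries examined for the 12 carriers with fold changes, 5 held a library far from the other 3, where chance gives about 1 in 20. These carriers were chosen with patterns of these data known, and 3 of the 5 groups stood out by the same library, so that nothing is read from their number. Mito-supplemented replicate 1 stood apart in its group for Slc25a37, with a log2 CPM of 10.88 against 5.34 to 5.75 in the other 3. It stood apart likewise for Slc25a38, at 5.79 against 2.86 to 3.32, and for Slc25a39, at 6.28 against 3.54 to 3.93. This library was the only mito-supplemented library with high red cell genes, and with high Lyz2, Ptprc and Tyrobp of the immune list, though its Cd68 was the lowest of its group. Mito-supplemented replicate 4 stood apart for Slc25a11, at 5.06 against 4.02 to 4.17. Control replicate 1 stood apart for Slc25a12, at 4.39 against 5.64 to 5.74, and it had the highest oocyte level of all libraries. The part of red cell, immune cell and oocyte RNA in these values was not tested.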

How the results depend on the processing

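The fit was repeated under 22 alternatives, of which 1 was added after the data were seen, and the permutation tests, rank correlations and order of levels under those that apply to them. DESeq2 and limma-voom changed the scaling or weighting together with the test. In all, 383 of 449 values kept their direction and their side of the threshold or moved little. Genes called numbered 0 except with the likelihood ratio test (58), DESeq2 (141) and limma-voom with quality weights (2578). Carriers called were 0 except with limma-voom (5). Carriers at an unadjusted p under 0.05 were 12 with limma-voom, 2 with counts summed by the first part (prefix) of the label codes (Slc25a21 and Slc25a38), 2 without the 3 libraries highest in Slc4a1, and 0 to 3 when single libraries were omitted, 3 of them without control replicate 1. The median log2 fold change of the carriers was 0.28 with library size only and 0.23 without the 3 libraries highest in Slc4a1, and from -0.14 to 0.13 when single libraries were omitted. Between 37 and 39 carriers passed the filter when single libraries were omitted.

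With limma-voom, Slc25a4, Slc25a37, Slc25a23 and Slc25a12 passed the threshold, with log2 fold changes of 1.08, -3.65, 1.33 and -1.13, and Slc25a39 turned to -0.79. The log2 fold change of Slc25a5, -0.00028 in the edgeR fit, was 0.25 with library size only, 0.06 with upper quartile scaling, 0.028 with ribosomal RNA genes left out, 0.028 with at least 1 CPM in 4 samples, 0.043 with no filter, 0.045 with the red cell covariate, 0.12 with counts summed by prefix, 0.17 with the GC and length offset, 0.23 without the 3 libraries and -0.50 with limma-voom, the largest move. That of Slc25a3, -0.04 in the edgeR fit, was 0.28 (library size only), 0.034 (upper quartile), 0.011 (no filter), 0.17 (prefix), 0.019 (offset), 0.047 (without the 3 libraries) and -0.29 (limma-voom). That of Slc25a37 was 0.19 with the red cell covariate and 0.62 without the 3 libraries, that of Slc25a38 1.06 without the 3 libraries. That of Slc25a39 was -0.21 with the replicate block, -0.05 with counts summed by prefix, -0.073 with the offset and -0.48 without the 3 libraries. When single libraries were omitted, Slc25a5 ran from -0.17 to 0.21, Slc25a37 from -3.77 to 0.37, Slc25a39 from -0.94 to 0.50 and Slc25a3 from -0.17 to 0.082.

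Deviations of same-numbered samples from their group means had correlations over genes of -0.244, -0.191, -0.334 and 0.222. These values showed no steady pairing by number. They cannot settle whether the numbers pair the samples, since the libraries also differed widely in red cell and oocyte genes. With the replicate block 0 genes and 0 carriers were called. The number of named carriers at an exact permutation p under 0.05 was 0 or 1 when single libraries were omitted. Slc25a11 was not among them in 5 of the 8 omissions, and without control replicate 3 the 1 carrier was Slc25a22. Spearman's rho of Slc25a31 with the oocyte list ran from 0.76 (library size only) to 0.96. That of Slc25a4 was between -0.036 and 0.68 on omitting single libraries, that of Slc25a38 from -0.79 (without mito-supplemented replicate 4, exact p = 0.048, where the p over all libraries was 0.0694) to -0.61, and that of Slc25a39 from -0.36 to 0.11. With library size only it was 0.45 for Slc25a39, -0.12 for Slc25a37, -0.26 for Slc25a38, 0.26 for Slc25a4 and -0.26 for Slc25a5. The cause was not tested for any of these.

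Control replicate 4 limits what can be seen of low carriers, since it had the fewest counts outside ribosomal RNA genes. A p that misses the threshold does not show that a carrier did not differ.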
